A study of Rattus norvegicus with 16 samples.

Results

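Voltage-gated sodium and calcium channel genes were followed in the gustatory cortex (GC) of rats that had drunk an unfamiliar taste or water. The members were all genes whose symbol begins with Cacna, Cacnb or Cacng, or is Scn followed by a number and the letter a or b, and which had a probe set paired with that 1 gene in the array's annotation. This gave 35 genes of the 14497 measured, namely 11 sodium channel genes and 24 calcium channel genes, on 36 probe sets. Where a gene had several probe sets the brightest stood for it, which concerned only Scn3a. A probe set shared between Scn3a and Scn9a was left out.

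The animals were male Wistar Hola rats, 2 months old per the labels, and the labels name no transgene or injection. All had been kept on water restriction for 3 days and then drank either 0.1% saccharin, which they had not met before, or water, which was familiar. Gustatory cortex was taken 1 h or 3 h after drinking, which gave 4 groups of 4 arrays (16 arrays). All 4 groups had drunk, so the arrays hold no group without fluid. Each array held the RNA of 1 rat, so p-values measure the spread between rats together with that of the assay.

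A voltage-gated sodium channel is a pore-forming alpha subunit that opens on depolarisation and carries the upstroke of the action potential, together with small beta subunits that tune its gating and its place in the membrane. A voltage-gated calcium channel has an alpha1 pore that names its type, a cytoplasmic beta subunit and an alpha2delta subunit that carry it to the surface, and it turns electrical activity into calcium entry for transmitter release and for signals to the nucleus. The gamma subunits resemble each other in sequence but differ in use. Some belong to muscle channels, and others, the TARPs, are auxiliary subunits of AMPA-type glutamate receptors.

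No channel gene passed the test between the times or between the tastes. In limma with Benjamini-Hochberg adjustment over the 15209 probe sets tested, 0 of 35 members had an adjusted p under 0.05 in any of the comparisons: 1 h against 3 h after saccharin, the same after water and averaged over the tastes, saccharin against water at 1 h, at 3 h and averaged over the times, and the interaction of taste and time. Over all probe sets tested, 0.348% passed between the times after saccharin, 0.125% after water and 1.01% averaged over the tastes. In the other comparisons 0% passed, so 0 of 35 lies near the share of all probe sets. The differences were small, and the members' estimates lay between -0.12 and 0.16 in the saccharin rats and between -0.21 and 0.15 in the water rats on the log2 scale (1 h minus 3 h). The closest to the threshold was Cacng2, which encodes the TARP stargazin, with a 1 h minus 3 h estimate of -0.16 (SE 0.044) averaged over the tastes and an adjusted p of 0.106 in limma.

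The promoters of the 4 members with an unadjusted p under 0.05 between the times, averaged over the tastes, are shown because these had the smallest p-values there. That share, 11.4% of the members, is near the 12% of all probe sets tested, so nothing is read from the choice. Each window runs from 250 bases before to 50 bases after the gene's start in RefSeq (build GRCr8), 5′ to 3′ on the gene's strand, with every CpG in capitals. That of Cacng2 lies at chr7:111577708-111578007 on the minus strand, that of Cacng3 at chr1:186632312-186632611 on the plus strand, that of Cacng6 at chr1:74662704-74663003 on the minus strand, and that of Scn10a, a sodium channel of pain-sensing neurons, at chr8:128340249-128340548 on the minus strand.
Cacng2: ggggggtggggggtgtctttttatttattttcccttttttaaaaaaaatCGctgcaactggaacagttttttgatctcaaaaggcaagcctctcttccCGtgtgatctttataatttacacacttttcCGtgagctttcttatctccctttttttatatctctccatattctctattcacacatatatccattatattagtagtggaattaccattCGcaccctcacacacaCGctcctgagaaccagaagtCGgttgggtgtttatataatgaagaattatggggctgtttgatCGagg
Cacng3: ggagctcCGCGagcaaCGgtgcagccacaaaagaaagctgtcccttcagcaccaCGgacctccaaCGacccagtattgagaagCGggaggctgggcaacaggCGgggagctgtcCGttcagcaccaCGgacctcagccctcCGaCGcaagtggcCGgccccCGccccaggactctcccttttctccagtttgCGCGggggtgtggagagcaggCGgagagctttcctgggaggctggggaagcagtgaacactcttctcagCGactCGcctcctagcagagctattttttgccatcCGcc
Cacng6: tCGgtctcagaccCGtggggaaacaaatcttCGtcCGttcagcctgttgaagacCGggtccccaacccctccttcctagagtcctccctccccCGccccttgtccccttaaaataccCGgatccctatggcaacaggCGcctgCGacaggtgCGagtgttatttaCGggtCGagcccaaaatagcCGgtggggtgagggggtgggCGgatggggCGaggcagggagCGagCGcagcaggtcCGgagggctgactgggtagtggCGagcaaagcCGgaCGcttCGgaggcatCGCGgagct
Scn10a: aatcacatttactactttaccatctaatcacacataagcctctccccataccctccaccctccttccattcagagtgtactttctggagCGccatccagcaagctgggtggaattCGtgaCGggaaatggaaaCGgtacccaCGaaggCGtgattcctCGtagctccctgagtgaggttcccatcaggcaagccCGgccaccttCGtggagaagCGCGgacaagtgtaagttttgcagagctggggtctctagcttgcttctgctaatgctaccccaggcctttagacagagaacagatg
The windows held 7 CpG in Cacng2, 19 in Cacng3, 24 in Cacng6 and 11 in Scn10a. The RefSeq promoter table matched 25 of the 35 members by symbol, in 28 windows, with a median of 17.5 CpG (range 2 to 66) and a GC content of 63.3%, against medians of 7.0 CpG and 51.7% over all 33469 windows.

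Short motifs of activity-regulated factors were searched on both strands of these windows. The full cAMP response element TGACGTCA was in 0 of the 28 member windows and in 1.83% of all windows, the AP-1 site TGACTCA in 0 and in 4.63%, and the CArG box, bound by serum response factor, in 0 and in 1.64%. The shorter core TGACG, which the full element contains, was in 5 member windows (those of Cacna1b, Cacna1c, Cacna2d1, Cacnb2 and Scn10a) and in 21.2% of all. TATAAA, searched in the same way but not one of those motifs, was in 1 member window, that of Cacng2, and in 14.2% of all. In Cacng2 it lies only on the strand opposite to the printed one, so it is not read as a TATA box of that gene.

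Levels are given as log2 RMA values, the scale of the deposited data, and are not compared between genes because each probe set has its own brightness. For the same reason marker levels cannot settle which tissue was taken, and they are given only across groups. The 8 neuron markers averaged 10.24 to 10.28 in the 4 groups, the 5 measured markers of sensory ganglion neurons 3.73 to 3.78 and the 5 of skeletal muscle 5.46 to 5.50. Members known from such other tissues, among them Scn4a (skeletal muscle), Scn10a and Scn11a (pain-sensing neurons), Cacna1f (retina), Cacng1 and Cacng6 (muscle), and also Scn7a, had mean values under 5, and the other 28 members were at or above 5. An array gives no count, so how much of a low value is background was not determined. The cut at 5 only marks dim probe sets, and it does not show which genes are expressed. Array medians ran from 5.084 to 5.165, pairs of arrays correlated at 0.9945 to 0.9972, and 0 of 120 pairs held identical values.

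The sodium channel pores of central neurons gave no call. Scn1a had the highest estimate of the members for 1 h minus 3 h after saccharin and for saccharin minus water at 1 h. Scn1a, the pore that prevails in fast-spiking interneurons, read 9.39, 9.06, 9.32 and 9.39 at 1 h after saccharin and 9.14, 9.23, 9.20 and 8.97 at 3 h. After water it read 9.07, 9.15, 9.18 and 9.16 at 1 h and 8.996, 9.32, 9.08 and 9.04 at 3 h. In the saccharin rats 3 of the 4 arrays at 1 h lay above all 4 at 3 h, and the array C377 lay below 3 of them, so the groups overlapped. The 1 h minus 3 h difference was 0.16 after saccharin (SE 0.080, adjusted p = 0.673 in limma) and 0.031 after water (SE 0.080, adjusted p = 0.964), and the former was 0.23 without array C377 and 0.10 without C372. Between the tastes at 1 h Scn1a differed by 0.15 (SE 0.080, adjusted p = 1.00 in limma), and by 0.22 without C377.

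Scn8a, the pore of the axon initial segment and nodes, differed by 0.11 between the times after saccharin (SE 0.057, adjusted p = 0.679 in limma), or 0.17 without array C377, and by 0.037 after water. Its values ran from 9.40 to 9.66 at 1 h after saccharin and from 9.37 to 9.52 at 3 h, which overlap. Scn2a, the pore of excitatory axons, averaged 9.73 ± 0.07 (SD, n = 4) at 1 h and 9.68 ± 0.12 at 3 h after saccharin, and 9.67 ± 0.10 and 9.69 ± 0.07 after water. Scn3a, known for its embryonic expression, averaged 7.51 ± 0.14 and 7.58 ± 0.10 after saccharin and 7.48 ± 0.13 and 7.56 ± 0.09 after water. Its other probe set also gave no call, with a difference of -0.15 after water (unadjusted p = 0.080 in limma). There its 4 arrays at 1 h lay below the 4 at 3 h, as in 2.43% of all probe sets tested. It agreed in sign with the brightest after water but not after saccharin (0.0073 against -0.076). Between the tastes at 3 h the signs also differed (-0.089 against 0.021).

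Of the sodium channel pores of other tissues, Scn10a read 3.52, 3.36, 3.47 and 3.42 at 1 h after saccharin and 3.30, 3.24, 3.49 and 3.15 at 3 h. After water it read 3.57, 3.55, 3.32 and 3.54 at 1 h and 3.24, 3.31, 3.64 and 3.18 at 3 h. In both tastes 3 of the 4 arrays at 3 h lay below all 4 at 1 h and the other lay among or above them. The difference averaged over the tastes was 0.15 (SE 0.064, adjusted p = 0.337 in limma) and was 0.20 without array C369 of the water group at 3 h. Scn4a, the muscle pore, read 3.79, 3.71, 3.87 and 3.81 at 1 h after water and 4.01, 4.003, 3.94 and 3.92 at 3 h. Those groups did not overlap, yet the difference of -0.17 (SE 0.10) did not pass (adjusted p = 0.779 in limma). The saccharin arrays at 3 h ran from 3.43 to 4.19, and the 4 groups share 1 estimate of the spread in this fit. Between the tastes at 3 h Scn4a differed by -0.17 (SE 0.10, adjusted p = 1.00 in limma), which was -0.040 without array C368 and -0.29 without C370. Scn11a differed by -0.12 between the tastes at 3 h (unadjusted p = 0.104 in limma). Scn7a is a member by its symbol alone, and the description of a voltage-gated pore given above is not applied to it. It averaged 2.64 to 2.74 in the 4 groups.

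The sodium channel beta subunits gave no call. Scn2b averaged 9.38 to 9.44, Scn3b 8.62 to 8.66 and Scn4b 7.72 to 7.74 over the 4 groups. All 3 estimates after saccharin were between -0.034 and -0.0035, and those after water between -0.014 and 0.046. Scn4b, the subunit linked to resurgent current and strong in striatal neurons, is set beside the striatal markers further on.

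The presynaptic calcium pores, which trigger transmitter release, also gave no call. Cacna1a (P/Q type) ranged from 8.37 to 8.61 at 1 h after saccharin and from 8.22 to 8.49 at 1 h after water, and its difference between the tastes at 1 h was 0.089 (SE 0.059, adjusted p = 1.00 in limma). That difference was 0.030 without the water array C376 and 0.049 without the saccharin array C375. Cacna1b (N type) averaged 8.21 ± 0.06 at 1 h and 8.15 ± 0.06 at 3 h after saccharin, and 8.14 ± 0.06 and 8.12 ± 0.06 after water (SD, n = 4). Cacna1e (R type) averaged 8.93 ± 0.07 and 8.98 ± 0.08 after saccharin and 8.94 ± 0.07 and 8.996 ± 0.06 after water.

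The L-type pores carry calcium signals from the membrane to the nucleus in neurons. Cacna1c averaged 6.80 to 6.86 and Cacna1d 7.31 to 7.37 over the 4 groups, with SDs of 0.03 to 0.13. The retinal Cacna1f averaged 3.94 to 4.02. Among the T-type pores, which open near rest and shape burst firing, Cacna1g averaged 7.29 to 7.37 and Cacna1i 8.32 to 8.35. Cacna1h read 6.46, 6.41, 6.35 and 6.47 at 1 h after water and 6.48, 6.48, 6.51 and 6.49 at 3 h. Those water arrays did not overlap, by a gap that is small beside the spread of the saccharin arrays (6.41 to 6.61), and the difference of -0.066 (SE 0.048) did not pass (adjusted p = 0.831 in limma) and was -0.043 without array C376.

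The cytoplasmic beta subunits, which bind the calcium pore and aid its surface expression, averaged 8.47 to 8.57 for Cacnb1, 7.35 to 7.41 for Cacnb2, 8.78 to 8.86 for Cacnb3 and 9.004 to 9.09 for Cacnb4. Cacnb4 had the smallest p of the members between the tastes averaged over the times, with a difference of 0.067 (unadjusted p = 0.0886, adjusted p = 1.00 in limma). The alpha2delta subunits, the targets of gabapentin-type drugs in the case of Cacna2d1 and Cacna2d2, had positive 1 h minus 3 h estimates in all 3 genes and both tastes, none of which passed.

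Cacna2d3 read 9.70, 9.62, 9.61 and 9.70 at 1 h after saccharin and 9.44, 9.62, 9.61 and 9.47 at 3 h. It was the 1 member with an unadjusted p under 0.05 after saccharin. At 1 h 2 of the 4 arrays lay above all those at 3 h and the other 2 lay beside the upper pair at 3 h, so the groups overlapped. The difference was 0.12 (SE 0.054, unadjusted p = 0.0368, adjusted p = 0.586 in limma). After water it was 0.038 (SE 0.054). Cacna2d1 differed by 0.045 and 0.039 between the times after saccharin and water, and Cacna2d2 by 0.093 and 0.0025.

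Among the gamma subunits and TARPs, Cacng2 (stargazin) had the difference of greatest size among the 35 members after water and averaged over the tastes. It read 8.27, 8.27, 8.41 and 8.31 at 1 h after saccharin and 8.38, 8.58, 8.35 and 8.40 at 3 h. After water it read 8.29, 8.38, 8.14 and 8.19 at 1 h and 8.54, 8.48, 8.39 and 8.43 at 3 h. The water groups did not overlap and the saccharin groups did. The 1 h minus 3 h difference was -0.21 after water (SE 0.062, adjusted p = 0.370 in limma) and -0.11 after saccharin (SE 0.062, adjusted p = 0.701). The interaction test of these 2 differences gave 0.091 (SE 0.088, adjusted p = 1.00 in limma). Averaged over the tastes, the 95% interval of -0.25 to -0.067 excludes 0 before adjustment, and the estimate corresponds to 0.895-fold.

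Cacng3 and Cacng8 are TARPs of forebrain neurons. Cacng3 read 9.97, 9.85, 9.90 and 9.89 at 1 h after water and 9.98, 9.93, 10.03 and 10.02 at 3 h, which overlap by 1 array. Its averaged difference was -0.065 (SE 0.030, adjusted p = 0.405 in limma). Cacng8 read 7.81, 7.75, 7.81 and 7.70 at 1 h after water and 7.86, 7.83, 7.81 and 7.90 at 3 h. The highest array at 1 h and the lowest at 3 h both rounded to 7.81, so the groups came apart barely, and the difference was -0.080 (SE 0.044, adjusted p = 0.733 in limma) after water and -0.0069 after saccharin.

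Cacng6 is a muscle subunit at a mean value under 5, and it read 3.69, 3.82, 3.86 and 3.85 at 1 h after water and 4.09, 3.89, 3.91 and 3.96 at 3 h. These groups did not overlap and differed by -0.16 (SE 0.073, adjusted p = 0.676 in limma), and the difference averaged over the tastes was -0.14 (SE 0.052, adjusted p = 0.253). Cacng6, Cacng8 and Cacng7 follow each other in the RefSeq gene order with 0 protein-coding genes between them, as do Cacng1, Cacng4 and Cacng5, and Cacng7 differed by -0.020 after water. Cacng4 averaged 7.16 to 7.25, Cacng1 3.81 to 3.92 and Cacng5 5.59 to 5.73. Cacng5 had the most negative difference between the tastes at 1 h (-0.13, SE 0.087, adjusted p = 1.00 in limma), which was -0.059 without array C379, -0.089 without C380 and -0.21 without C375.

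**Figure D1:**
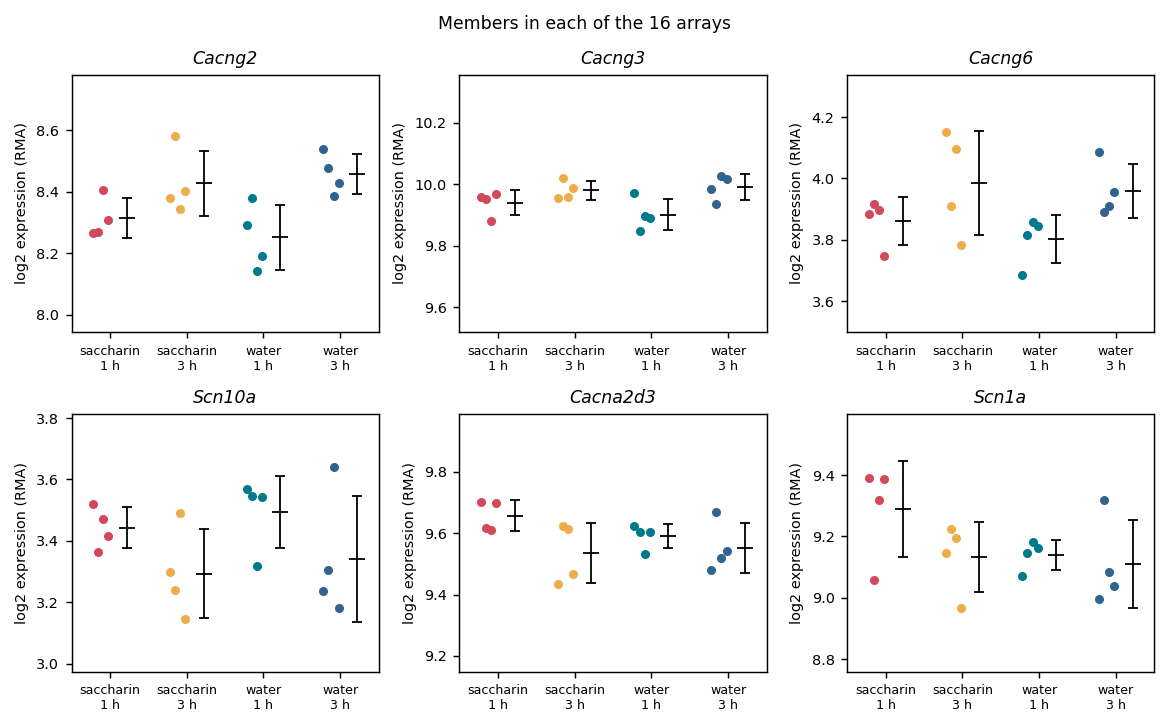
Log2 RMA values (vertical axis, 1 panel per gene with the same span) of 6 members in each of the 16 arrays, as points by group, with the group mean and SD beside them (n = 4). For Cacng2 and Cacng6 the 4 water arrays at 1 h lie below the 4 at 3 h, and in the other panels and in the saccharin groups the points overlap.

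The counts stand beside those of all probe sets tested. Between 1 h and 3 h after saccharin, 1 of 35 members (2.86%) had an unadjusted p under 0.05 against 7.98% of all, and 0 against 0.348% passed after adjustment in limma. After water 2 of 35 (5.71%), Cacng2 and Cacng6, had an unadjusted p under 0.05 against 7.23%, and 0 against 0.125% passed. Averaged over the tastes 4 of 35 (11.4%), Cacng2, Cacng6, Cacng3 and Scn10a, had an unadjusted p under 0.05 against 12%, and 0 against 1.01% passed. The members' share was close to or below the background in each of the 3.

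Arrays that did not overlap give another view. After saccharin 0 of 35 members had all 4 arrays of a time on 1 side of the other 4, against 4.78% of all. After water 5 of 35 members (14.3%) did so, against 4.35% of all, and all 5 (Cacng2, Cacng6, Cacng8, Cacna1h and Scn4a) had the 1 h arrays below the 3 h arrays, against 2.43% of all in that direction. Such 4 against 4 splits reach an exact permutation p no smaller than 0.0286 for 1 gene, and the limma fit called none of the 5.

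The background was lower between the tastes. At 1 h 0 of 35 members had an adjusted p under 0.05 and 0 an unadjusted one, against 0% and 3.06% of all, and 0 against 1.5% did not overlap. At 3 h the members were at 0 by all 3 measures, against 0%, 3.37% and 1.91%. Averaged over the times 0 members had an unadjusted p under 0.05 against 3.39%, with 0 against 0% after adjustment, and in the interaction 0 against 2.96%, with 0 against 0% after adjustment. The signs were 23 positive and 12 negative at 1 h (median 0.023, all probe sets 0.0025) and 14 positive and 21 negative at 3 h (median -0.010, all probe sets -0.0034). Of the members with the smallest p, Cacng1 differed by -0.11 between the tastes at 3 h, or -0.036 without array C365 and -0.17 without C367. Averaged over the times Cacng7 and Cacna2d1 differed by 0.075 and 0.063, the latter 0.040 without C365. In the interaction Cacng8 gave 0.073, Cacng5 -0.14 and Cacna2d3 0.085, all with an adjusted p of 1.00 in limma. Leaving out 1 array moved Cacng5 to -0.068 (C379) or -0.22 (C375) and Cacna2d3 to 0.046 (C367) or 0.052 (C366).

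How large a change in the measured values the arrays could have missed was read from the 95% intervals. For the 7 members with a mean value under 5, the part of background in the value was not determined. Their intervals therefore do not bound a change in transcript. Between the tastes at 1 h, all 35 intervals lay within 0.322 of 0 in either direction on the log2 scale, as did 94.4% over all probe sets tested, and at 3 h 34 did (94% of all), the exception being Scn4a. Between the times 33 did after saccharin, without Scn10a and Scn1a, and 32 after water, without Cacng2, Scn10a and Scn4a, against 91.6% and 91.8% of all. For the interaction 31 of 35 did (75.3% of all), without Cacng1, Cacng5, Scn1a and Scn4a. The SD within groups was 0.089 at the median of the members (0.042 for Cacng3 to 0.17 for Scn4a) and 0.093 over all probe sets.

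**Figure D2:**
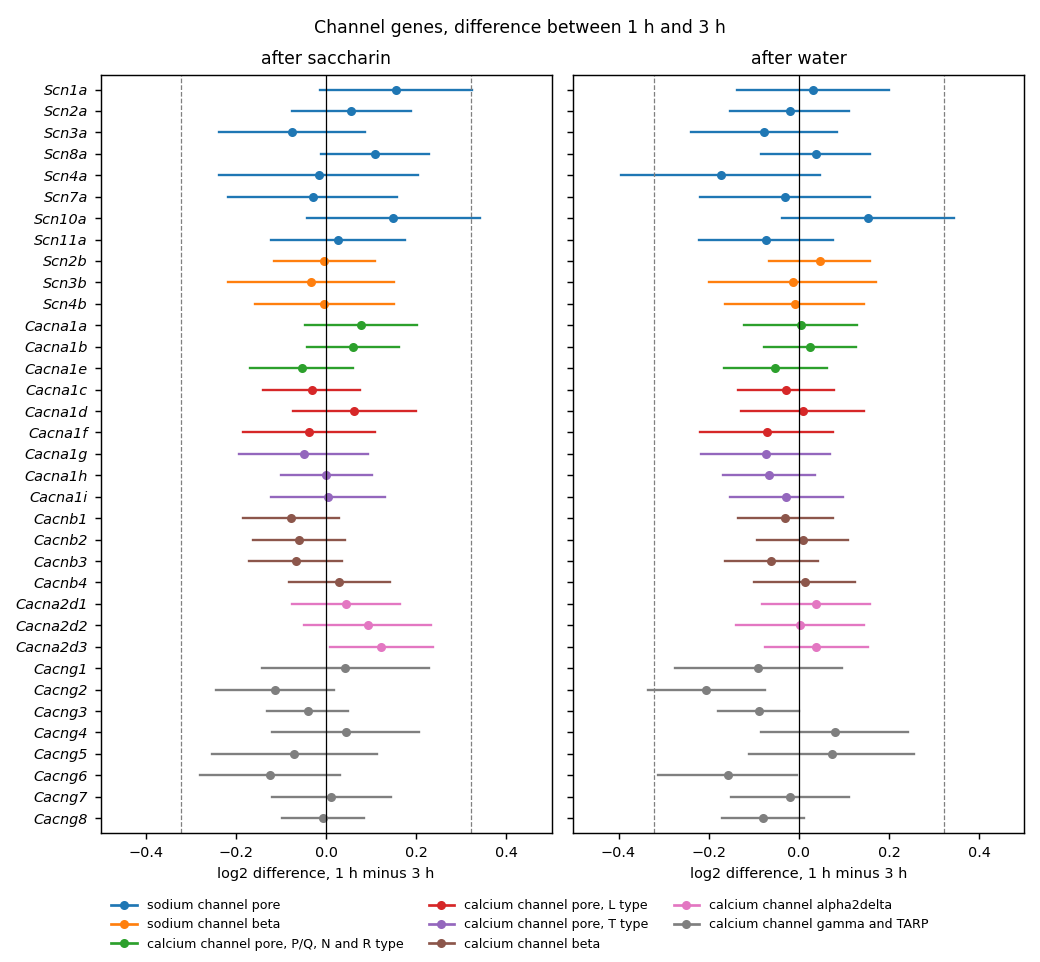
Log2 difference of 1 h minus 3 h (horizontal axis) for the 35 members (vertical axis, coloured by role) after saccharin and after water, as limma estimates with 95% intervals. Dashed lines mark log2 differences of 0.322 in either direction, and the intervals of Cacng2 and Cacng6 after water and of Cacna2d3 after saccharin leave out 0 before adjustment.

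**Figure D3:**
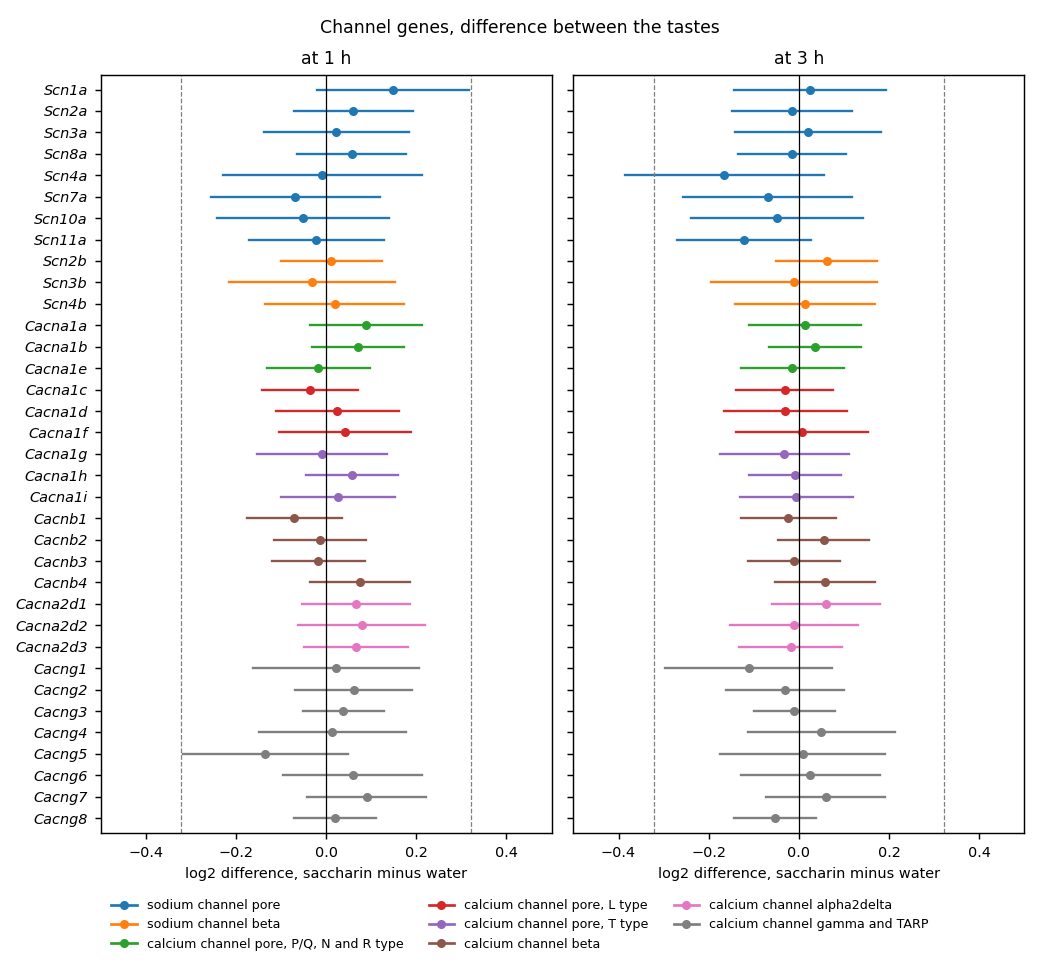
Log2 difference of saccharin minus water (horizontal axis) for the 35 members (vertical axis, coloured by role) at 1 h and at 3 h, as limma estimates with 95% intervals. Every interval includes 0, and only that of Scn4a at 3 h crosses the dashed lines at log2 0.322 in either direction.

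By role no gene was called for time, and the signs of the estimates are given only as descriptions. Averaged over the tastes, 6 of 8 gamma subunits and TARPs, all 3 T-type pores and 3 of 4 calcium channel beta subunits had negative 1 h minus 3 h estimates, and all 3 alpha2delta subunits positive ones (0.042 to 0.080). The genes grouped as sodium pores, Scn7a among them, were split, with 4 positive and 4 negative. The sodium beta subunits and the L-type pores each had 1 positive and 2 negative. The P/Q, N and R type pores had 2 positive and 1 negative. The share of each sign over all probe sets was not computed, so no difference between roles is read from these counts. Over all members 14 were positive and 21 negative, with a median of -0.023 against -1.2e-05 over all probe sets tested.

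The means of marker lists of neighbouring tissue differed between the times. Averaged over the tastes, 1 of 8 striatal markers passed in limma. Of 14 leptomeningeal and fibroblast markers 0 passed, and 11 had an unadjusted p under 0.05. The part of these lists in the channel values was examined only with the list means as covariates and, for Cacng2 and Scn4b, by correlation. The mean of 8 measured striatal markers was 6.44 (6.37 to 6.53) at 1 h and 6.59 (6.56 to 6.63) at 3 h after saccharin, and 6.45 (6.37 to 6.50) and 6.59 (6.57 to 6.61) after water, with no overlap. Of these markers Pde10a differed by -0.49 averaged over the tastes (adjusted p = 1.6e-05 in limma), Drd2 by -0.31 (adjusted p = 0.0539) and Adora2a by 0.040. The mean of 14 leptomeningeal and fibroblast markers was 6.87 (6.74 to 7.005) at 1 h and 6.51 (6.17 to 6.84) at 3 h after saccharin, and 6.79 (6.65 to 6.96) and 6.59 (6.40 to 6.77) after water. In bulk tissue fewer cells of a type and less RNA per cell cannot be told apart. The numbers in the sample names are all lower for 3 h than for 1 h. The sources used here do not say what they number, and anything that followed them cannot be told apart from time.

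With the striatal mean as a covariate the Cacng2 difference averaged over the tastes was -0.074 (adjusted p = 0.909 in limma), that after water -0.12, and those of Cacng8 after water and Scn1a after saccharin changed sign. The estimate averaged over the tastes was 0.063 for Scn10a, and others grew, to -0.29 for Scn4a, -0.19 for Cacng6 and -0.097 for Cacna1h after water. That covariate itself differs between the times. With the leptomeningeal mean as a covariate Cacna2d3 after saccharin was 0.061 (adjusted p = 0.947 in limma), Scn1a after saccharin 0.057 and Cacna1h after water -0.035, whereas Cacng2 averaged over the tastes was -0.16 (adjusted p = 0.452). Over the 16 arrays, as deviations from the group means, Cacng2 and the striatal mean correlated at r = 0.32 (permutation p = 0.225, adjusted 0.450) and rho = 0.41 (permutation p = 0.117, adjusted 0.350), with r = 0.45 without the 2 farthest arrays, among 6 relations computed. Scn4b, of which the striatum holds much, correlated with that mean at r = -0.060 (permutation p = 0.827, adjusted 0.940) and rho = -0.19 (permutation p = 0.479, adjusted 0.575), with r = 0.13 without the 2 farthest arrays. Of the other 4, those with the neuron and leptomeningeal means, none passed after adjustment.

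**Figure D4:**
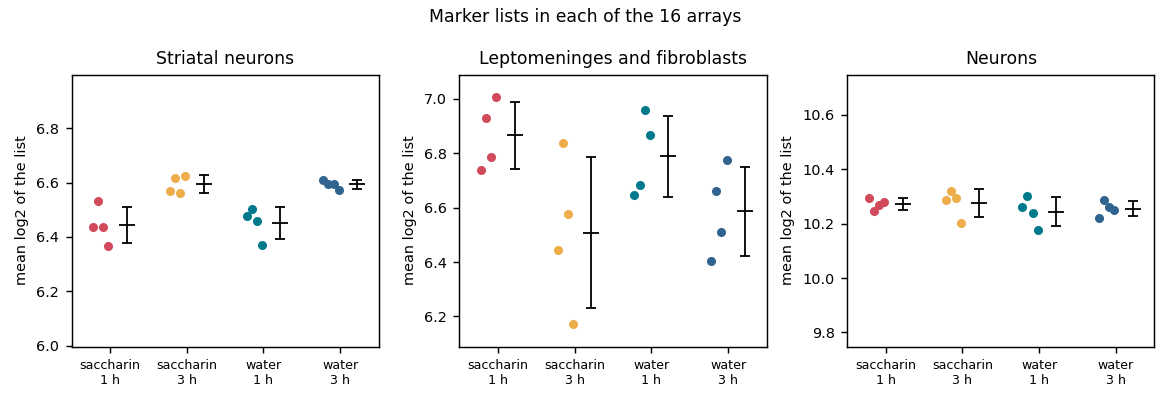
Mean log2 RMA value of 3 marker lists (vertical axes) in each of the 16 arrays, as points by group, with the group mean and SD (n = 4). The striatal mean is lower in all arrays at 1 h than in all at 3 h, the leptomeningeal mean is higher at 1 h on average with overlap, and the neuron mean ranges from 10.18 to 10.32.

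Members varied together within groups somewhat more often than with other genes. Over 595 pairs of members, the correlations of deviations from the group mean had a median of 0.056 (range -0.709 to 0.809), and 10.3% exceeded 0.5. Over 506170 pairs of a member with any other gene the median was 0.0024 and 5.45% exceeded 0.5. All pairs share the same 16 arrays, so these are descriptions. The other genes were not matched to the members for level, and whether the higher share goes with level was not tested. The closest pair was Cacnb2 with Cacnb4.

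**Figure D5:**
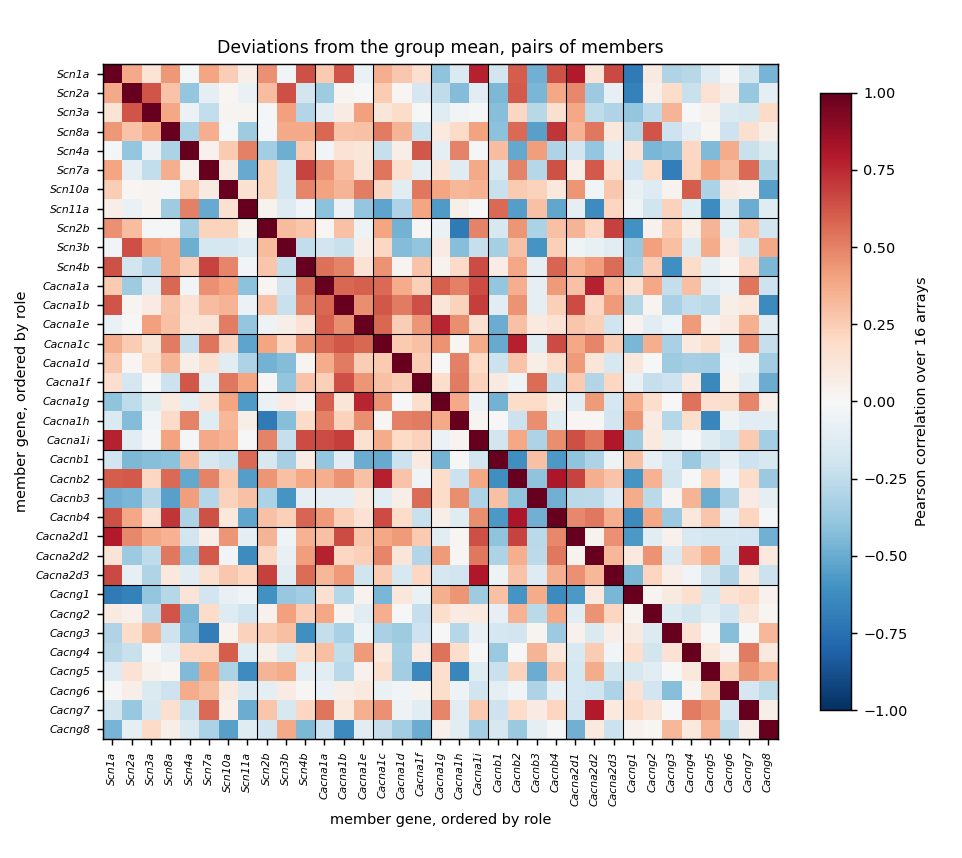
Pearson correlation (colour, -1 to 1) between each pair of the 35 members (both axes, ordered by role, with lines between roles) over deviations from the group mean in 16 arrays. The pair Cacnb2 and Cacnb4 reaches 0.81, and the median over the pairs is 0.056, with quartiles of -0.18 and 0.317.

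Genes tied to ion channels, mostly partners and regulators of them, were given the same test. Of the 37 symbols listed, 31 matched a measured gene, and 0 passed in limma in either direction in any comparison. Over all probe sets tested at most 1.01% passed in any comparison. Averaged over the tastes 5 of 31 had an unadjusted p under 0.05 between the times, beside 12% of all probe sets tested, with 1 estimate positive and 4 negative for 1 h minus 3 h. Rimbp2, which ties calcium channels to the release site, differed by -0.14 (adjusted p = 0.132), Nedd4l, a ubiquitin ligase that removes sodium channels, by -0.082 (adjusted p = 0.302), Dpysl2, which regulates N-type channels, by -0.071 (adjusted p = 0.354), Fgf13, a modulator of sodium channels, by -0.066 (adjusted p = 0.411), and Calm2, a calmodulin gene, by 0.12 (adjusted p = 0.332). Between the tastes Rrad, a small GTPase that inhibits calcium channels, differed by 0.19 at 3 h (unadjusted p = 0.0197, adjusted p = 1.00), at a mean value of 3.99.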

How the data were processed

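Total RNA of gustatory cortex was turned into cDNA and then into biotinylated cRNA, which was hybridised to Affymetrix RaGene 1.1 ST v1 arrays. The authors quantile normalised the probe signals of all chips and summarised them by the robust multi-chip average (RMA) with affy (version not stated in the paper or labels). The deposited unit is a log2 value for each probe set in each array. The authors had kept probe sets of 1 gene by their own alignment, a step replaced here by the array annotation, which pairs 15209 of 28826 probe sets with 1 gene and 306 with several, and 13311 had no entry.

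A model with 4 group means was fitted by limma 3.58.1 (R 4.3.3) to all 15209 probe sets, sharing 1 spread from 16 arrays, and called at a Benjamini-Hochberg adjusted p under 0.05. The fit was checked on simulated data. Differences are 1 h minus 3 h or saccharin minus water, and all tests were two-sided. Named with a test were members called or at an unadjusted p under 0.05, the 3 with the smallest p in each comparison, and those whose groups did not overlap, with values for the rest. The members and lists were chosen with earlier results of these data known. Correlations across arrays used 100000 permutations. Alternatives covered the probe sets tested, dim probe sets, normalization, prior, array weights, covariates, fits on 8 arrays and leaving out each array. Promoter windows came from RefSeq (GRCr8). The files give no coordinates. The number of arrays limits the precision.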

Additional observations from a re-analysis of the deposited data

Results flagged for a closer look

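In 6 of the 140 groups of 4 arrays (35 members in 4 groups) 1 array stood apart, its gap to the nearest other array taking more of the group's range than Dixon's 95% critical value, and chance alone gives about 1 in 20 such groups. At 3 h after water, Cacna1f was lowest in array C365 (3.90, others 4.05 to 4.06) and Cacna1i highest in C367 (8.47, others 8.30 to 8.32). At 1 h after saccharin, Cacna1h was highest in C379 (6.61, others 6.43 to 6.45) and Cacna2d2 highest in C375 (6.57, others 6.34 to 6.36). At 3 h after saccharin, Cacnb4 was highest in C368 (9.14, others 9.03 to 9.04), and at 1 h after water Scn10a was lowest in C376 (3.32, others 3.54 to 3.57). The 6 lie in 6 different arrays.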

How the results depend on the processing

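The count of 0 channel genes past the adjusted threshold held in limma under all 179 combinations of comparison and alternative. In the main fit 0% of all probe sets passed between the tastes and in the interaction, and 0.125% to 1.01% between the times. With so few calls among all probe sets, a count of 0 among 35 members says little about the members. With the striatal markers as a covariate the 1 h minus 3 h estimates of Cacng8 after water (0.000612) and Scn1a after saccharin (-0.050) reversed, and the other 616 values of named genes kept their direction and their side of the threshold. The adjusted p of Cacng2 averaged over the tastes ran from 0.051 (trend and robust prior) to 0.909 (striatal covariate). Members at an unadjusted p under 0.05 numbered 0 to 3 between the times within a taste, and averaged over the tastes 0 with the striatal covariate and 2 to 6 when 1 array was left out (2 without C365, C371, C372, C374, C375 or C378, and 6 without C367). Between the tastes they numbered at most 3 and in the interaction at most 1, the highest counts coming without saccharin array C377 or C370. Over all probe sets, the calls between the times averaged over the tastes numbered 153, and 5 with the striatal covariate. The striatal mean was itself lower in all arrays at 1 h than in all at 3 h. That fit therefore cannot tell it apart from time, and the reason for the lower number was not tested. No paired analysis was possible because the 4 groups share no replicate number. The number of arrays sets these limits. Depending on the comparison, 31 to 35 of the 35 intervals of the measured values lay within 0.322 of 0 on the log2 scale.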
